A study of Mus musculus with 15 samples.

Results

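The 10 genes described here mark epithelial junctions, the keratin cytoskeleton and mesenchymal cells: Cdh1, Cdh2, Epcam, Cldn4, Cldn6, Krt7, Krt8, Krt18, Krt19 and Vim. They were taken by name from the 19937 genes of the array, with the probe set that carried that symbol alone, and each of the 10 had 1 such probe set. Expression was measured in mouse embryonic stem (ES) cells on 15 Affymetrix arrays, 3 for each of 5 groups, and the values are log2 RMA signals, in which a difference of 1 is a 2-fold change. All cells, the DMSO group included, came from 1 line, a 2i-adapted Ctnnb1-Biotin-3xFLAG knock-in that also carries the biotin ligase BirA, so the protein that links cadherins to actin, beta-catenin, was tagged in every group. The 2iLIF group stayed in CHIR99021 (3 µM, an inhibitor of the kinase GSK3), PD0325901 (1 µM, an inhibitor of the ERK-activating kinase MEK) and the cytokine LIF. The other groups had some of these withdrawn for 24 h: LIF alone (2i), PD0325901 and LIF (CHIR), CHIR99021 and LIF (PD03), or all of them (DMSO). Whether the 3 replicates were grown as separate cultures is not in the labels. The p-values therefore rest on the spread among these arrays, and that spread could be purely technical.

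E-cadherin, the product of Cdh1, holds epithelial cells and ES cell colonies together, and its cytoplasmic tail binds beta-catenin. Epcam is an adhesion molecule of epithelia and of pluripotent cells, and claudins form the strands of tight junctions. Keratins are intermediate filaments made of pairs of a type II keratin (Krt7, Krt8) and a type I keratin (Krt18, Krt19), and Krt8 with Krt18 is the pair of simple epithelia and of the first epithelium of the embryo. Vimentin (Vim) and N-cadherin (Cdh2) are the filament and cadherin that replace keratins and E-cadherin when epithelial cells become mesenchymal.

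The cells carried the markers of ES cells in every group: 8 of 8 measured markers had a group mean at or above 7.40, the median level of all genes, and their summed signal lay between 14.65 and 14.77 (log2) on the 15 arrays. Single markers moved in opposite directions within that sum. From 2iLIF to DMSO the means of Nanog (12.72 to 11.74), Zfp42 (10.66 to 9.82) and Tdgf1 (12.39 to 11.95) fell. Those of Utf1 (11.57 to 12.51), Lin28a (9.61 to 10.53) and Dppa4 (10.17 to 10.76) rose. One target of each pathway followed its factor. The mean of Axin2 was 9.19 to 9.36 in the 3 groups with CHIR99021 and 7.66 to 7.86 without it. Dusp6 had means of 9.29 to 9.48 in the 3 groups with PD0325901 and of 10.41 to 11.06 without it, and the mean of Socs3 was 8.998 with LIF and 7.36 to 7.77 without it. Array medians lay between 6.98 and 7.06.

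The 10 genes changed in different directions and mostly by less than 2-fold. A gene is called when its limma adjusted p (Benjamini-Hochberg over all genes) is under 0.05, and the share of all genes called is given beside each count of members. In CHIR minus DMSO 9 of the 10 were called, 2 higher and 7 lower, against 20.8% of all genes. In PD03 minus DMSO 6 were called, 3 in each direction, against 16.8%. In 2i minus DMSO 6 were called (2 higher, 4 lower), against 25.5%, and in 2iLIF minus DMSO 7 (2 higher, 5 lower), against 34.7%. These comparisons share the DMSO arrays and are not independent of each other. Keeping LIF, 2iLIF minus 2i, moved 4 of the 10 (2 higher, 2 lower), against 12.2% of all genes. Krt8 alone passed a 2-fold minimum, in 2iLIF minus DMSO and in 2iLIF minus CHIR.

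**Figure D1:**
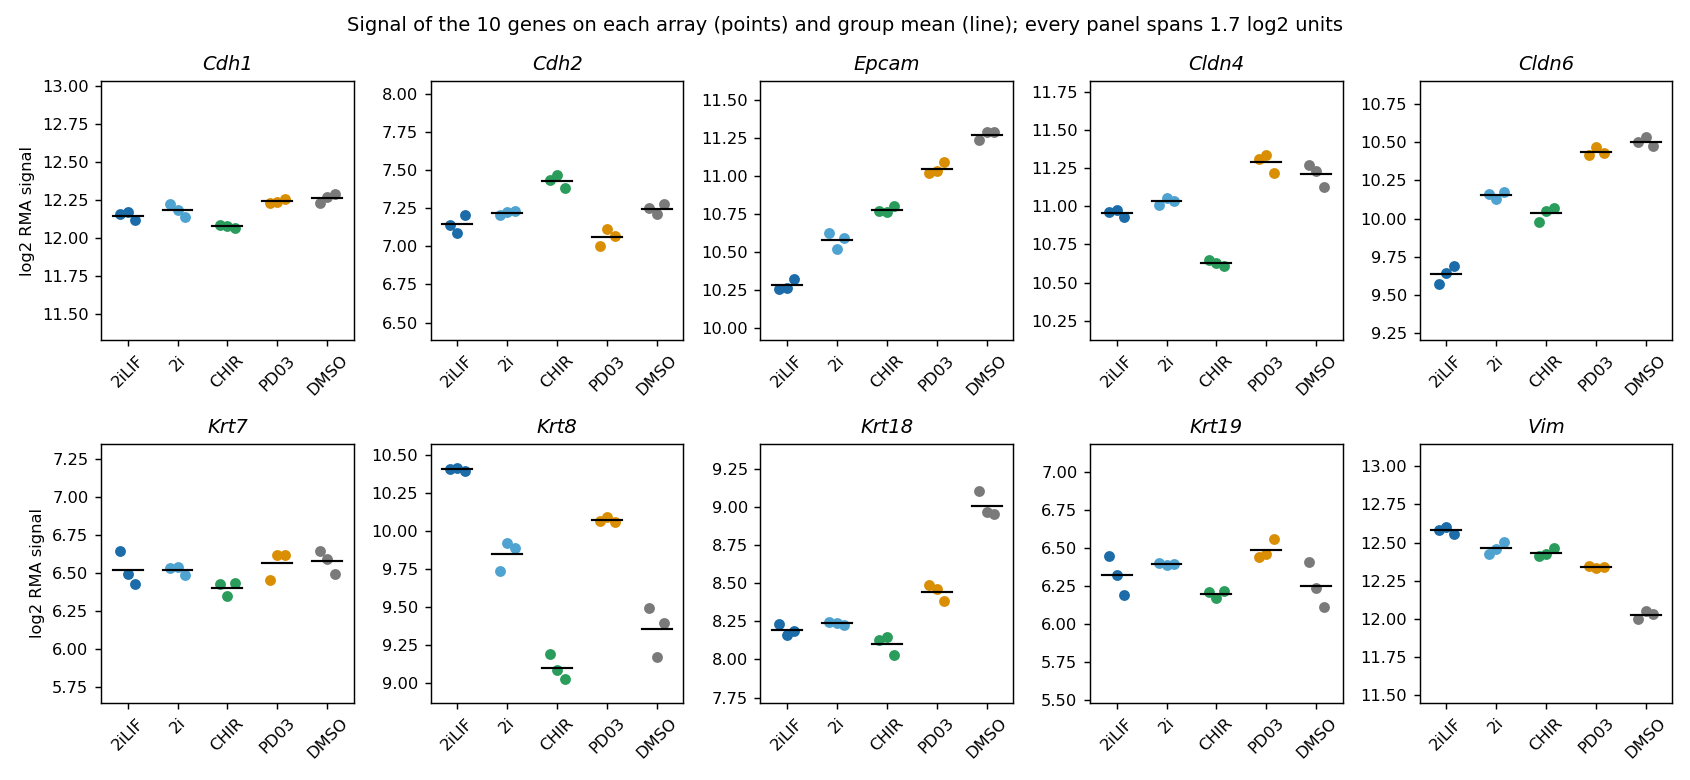
Log2 RMA signal of the 10 genes (y axis) in the 5 groups (x axis); points are the 3 arrays of a group, lines their mean, and each panel has its own range of equal width. Epcam rises in steps from 2iLIF to DMSO, Vim runs the other way, and Krt8 and Krt18 take their highest values in different groups.

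The members differed in how far they moved. The distance between the highest and the lowest group mean was 1.30 for Krt8, 0.99 for Epcam, 0.91 for Krt18, 0.87 for Cldn6, 0.66 for Cldn4 and 0.56 for Vim. It was 0.37 for Cdh2, 0.29 for Krt19, 0.18 for Cdh1 and 0.17 for Krt7. The median of this distance over all genes was 0.154. Krt7 and Krt19 had group means between 6.20 and 6.58, below the median gene in all 5 groups. Cdh2 reached that level in the CHIR group alone (7.43), so a low-value filter would have kept it through the group where it was highest. Without such a filter all 10 were tested, and with it 8 would be.

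Epcam separated all 5 groups. It read 11.24, 11.29 and 11.29 on the DMSO arrays, 11.02, 11.03 and 11.09 with PD0325901, and 10.77, 10.76 and 10.80 with CHIR99021. It read 10.62, 10.52 and 10.59 with both inhibitors and 10.25, 10.27 and 10.32 when LIF was kept as well. No array of a group overlapped with the next group in this order, and each of the 10 pairs of groups was called. Epcam was 1.99-fold lower in 2iLIF than in DMSO (-0.99 ± 0.04 SE, limma adjusted p = 9.58e-12). The loss of signal was -0.49 ± 0.04 in CHIR minus DMSO, -0.22 ± 0.04 in PD03 minus DMSO and -0.69 ± 0.04 in 2i minus DMSO, and LIF lowered it by a further step (-0.30 ± 0.04, adjusted p = 4.99e-05).

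Cldn6, a claudin of early embryonic epithelia, followed a like course with a wider step at LIF and with CHIR and 2i in the reverse order. In 2i minus CHIR Epcam was at -0.20 ± 0.04 (limma adjusted p = 0.00258) and Cldn6 at 0.12 ± 0.04 (0.0641). The Cldn6 arrays of these groups did not overlap, and the difference was called with the low-value filter (0.0282) and a trended robust prior (0.0401). It read 10.50, 10.53 and 10.48 in DMSO, 10.42, 10.47 and 10.43 in PD03 and 10.16, 10.13 and 10.18 in 2i. It read 9.98, 10.05 and 10.07 in CHIR and 9.57, 9.64 and 9.69 in 2iLIF. The 3 CHIR99021 groups all lay below the others, and 2iLIF lay below every other array. Cldn6 fell by 0.47 ± 0.04 on the log2 scale in CHIR minus DMSO (limma adjusted p = 2.78e-07) and by 0.52 ± 0.04 in 2iLIF minus 2i (1.82e-07). PD03 minus DMSO was -0.07 ± 0.04 and was not called (adjusted p = 0.307, 95% confidence interval -0.15 to 0.02). Over the 15 arrays Cldn6 and Epcam had a Pearson r of 0.932, given as a description because the arrays form 5 groups.

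Cldn4, a claudin of tight epithelia, took its lowest level with CHIR99021 alone and not in 2iLIF. It read 10.65, 10.63 and 10.61 in CHIR, 10.96, 10.98 and 10.93 in 2iLIF and 11.01, 11.05 and 11.04 in 2i. In PD03 it read 11.31, 11.34 and 11.22, and in DMSO 11.27, 11.23 and 11.13, and these last groups overlapped. Cldn4 fell by 0.58 ± 0.04 in CHIR minus DMSO (limma adjusted p = 6.64e-08). With MEK inhibited as well, the level was regained in part: 2i minus CHIR was 0.41 ± 0.04 (9.97e-06), one of 4 members called in that comparison (2 higher, 2 lower), against 9.46% of all genes.

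The promoters of Epcam and Cldn6 are shown because the values of these genes were correlated over the arrays. They are from RefSeq's GRCm38.p6 table, 5′ to 3′ on the gene's strand. Each is 300 bases long, from 250 before to 50 after the start site the table uses. That site is the first base of the gene's record for 6 members, and for Cldn6 it lies 17 bases inside the record. Capitals mark matches, on either strand, to the E-box CAGGTG, the TCF/LEF core CTTTGA, the AP-1 motif TGANTCA, the STAT motif TTCNNNGAA, the GC box GGGCGG and the TATA box TATAAA. Epcam lies at chr17:87635729-87636028 (plus strand) and Cldn6 at chr17:23679115-23679414 (plus strand).
Epcam: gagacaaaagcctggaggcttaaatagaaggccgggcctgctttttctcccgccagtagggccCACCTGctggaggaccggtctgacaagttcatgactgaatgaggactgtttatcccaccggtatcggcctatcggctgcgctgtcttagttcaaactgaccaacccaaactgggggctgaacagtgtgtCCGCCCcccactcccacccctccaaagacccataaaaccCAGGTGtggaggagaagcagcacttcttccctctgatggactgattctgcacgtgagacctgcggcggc
Cldn6: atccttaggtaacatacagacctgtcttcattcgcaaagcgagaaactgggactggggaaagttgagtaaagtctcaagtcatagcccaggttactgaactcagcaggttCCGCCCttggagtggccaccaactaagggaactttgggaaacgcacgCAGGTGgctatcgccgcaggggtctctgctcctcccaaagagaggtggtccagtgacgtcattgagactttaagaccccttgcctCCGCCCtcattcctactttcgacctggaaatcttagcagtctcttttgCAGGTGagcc
With the table's start site as position 1, the Epcam window holds E-boxes at -187 to -182 and at -19 to -14, and the Cldn6 window holds them at -93 to -88 and at 41 to 46. Both hold GC boxes, and no match to the TCF/LEF, AP-1 or STAT letters lies in these windows. Of all 32851 windows, 20.2% hold the E-box, 35.7% the GC box, 16.0% the TCF/LEF core, 7.81% the AP-1 motif, 8.3% the STAT motif and 13.6% the TATA box. Windows were found for 7 of the 10 members. An E-box is in 6 of them, those of Cldn4, Krt7, Krt8 and Krt18 included, and not in that of Vim, which holds a TATA box at -32 to -27. The Cldn4 window holds 2 AP-1 matches, at -240 to -234 and at -158 to -152. A match is a description of the letters and not evidence of a bound site.

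E-cadherin changed little. Cdh1 read 12.07 to 12.09 on the CHIR arrays, 12.12 to 12.17 in 2iLIF, 12.14 to 12.22 in 2i, 12.23 to 12.25 in PD03 and 12.23 to 12.29 in DMSO. The CHIR arrays were the lowest, and no 2 groups next to each other in this order were called as different. Cdh1 was lower in CHIR than in DMSO by -0.18 ± 0.03 (1.14-fold, limma adjusted p = 8.89e-04). The difference was -0.02 in PD03 minus DMSO (95% confidence interval -0.09 to 0.05, adjusted p = 0.749) and -0.08 in 2i minus DMSO (-0.15 to -0.01, adjusted p = 0.0939). The arrays of 2i and DMSO did not overlap, and this difference was called with the low-value filter (0.0422) and a trended robust prior (0.0186). In 2i minus CHIR Cdh1 was at 0.10 ± 0.03 (limma adjusted p = 0.073). That value was called with the low-value filter (0.0287), a trended robust prior (0.00972) and array weights (0.0484). The call in 2iLIF minus DMSO (-0.12 ± 0.03, adjusted p = 0.0128) was lost without 2iLIF replicate 3 (0.0546) or DMSO replicate 3 (0.0543), and in a fit of these groups alone (0.0696).

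N-cadherin moved in opposite directions with the inhibitors. Cdh2 read 7.44, 7.47 and 7.38 in CHIR and 7.25, 7.22 and 7.28 in DMSO, against 7.001, 7.114 and 7.069 in PD03. In 2i it read 7.20, 7.22 and 7.23, and in 2iLIF 7.14, 7.09 and 7.21. The CHIR arrays were above all others, and the 2i arrays overlapped with those in DMSO. Cdh2 rose by 0.18 ± 0.04 in CHIR minus DMSO (limma adjusted p = 0.00479), fell by 0.19 ± 0.04 in PD03 minus DMSO (0.0043), and was at -0.03 ± 0.04 in 2i minus DMSO (0.689). CHIR minus PD03 was 0.37 ± 0.04 (6.31e-06), where 8 of the 10 members were called (1 higher, 7 lower), against 25.8% of all genes.

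P-cadherin (Cdh3), from the list of other junction genes, varied far more than both. Its means were 11.16 in PD03, 10.46 in DMSO, 9.79 in 2i, 9.26 in CHIR and 8.75 in 2iLIF. It fell by 1.21 ± 0.04 in CHIR minus DMSO, rose by 0.70 ± 0.04 in PD03 minus DMSO and fell by 1.04 ± 0.04 in 2iLIF minus 2i, with a highest limma adjusted p of 2.8e-09 among these. Of the 18 measured adherens junction and desmosome genes, 2 were higher and 6 lower in CHIR minus DMSO (median -0.05), against 20.8% of all genes called, and 6 were higher and 1 lower in PD03 minus DMSO (median 0.08), against 16.8%. The medians over all genes lay between -0.014 and 0.0209 in the 11 comparisons. Desmoplakin (Dsp), which ties keratins to desmosomes, rose by 1.76 ± 0.09 in PD03 minus DMSO, and plakoglobin (Jup), a relative of beta-catenin in both kinds of junction, by 0.45 ± 0.04. The desmosomal cadherin Dsg2 rose in CHIR minus DMSO (0.97 ± 0.05) as well as in PD03 minus DMSO (0.57 ± 0.05). The other gene called higher in CHIR minus DMSO was Dsp (0.27, limma adjusted p = 0.0414). That call was lost without CHIR replicate 2 (0.205) or 3 (0.0662) and without DMSO replicate 3 (0.186). It was also lost with array weights (0.0627) and in a fit of these groups alone (0.105).

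Of 15 tight junction and apical polarity genes, 8 were lower in CHIR minus DMSO and none higher (median -0.20), against 10.8% of all genes lower and 20.8% called. In PD03 minus DMSO 2 were higher and 3 lower, against 16.8% of all genes called. The scaffold protein Patj had the widest step, -0.75 ± 0.04 in 2iLIF minus PD03, and the polarity protein Llgl2 rose by 0.39 ± 0.05 in 2iLIF minus DMSO. Cingulin (Cgn), a cytoplasmic plaque protein, was lower in CHIR minus DMSO (-0.50 ± 0.07) and in PD03 minus DMSO (-0.41 ± 0.07). Tjp3, a scaffold protein, was lower in the first of these (-0.27 ± 0.04) and higher in the second (0.25 ± 0.04). Of 15 other claudins 3 were called in CHIR minus DMSO, a share close to the 20.8% of all genes: Cldn5 (-0.64 ± 0.07), Cldn7 (-0.89 ± 0.05) and Cldn9 (-0.27 ± 0.07) were lower. The call of Cldn9 was lost without DMSO replicate 2 (limma adjusted p = 0.0564). Cldn7 rose with LIF (2iLIF minus 2i, 0.53 ± 0.05), where Cldn6 fell, and Cldn12 was higher in CHIR than in PD03 (0.29 ± 0.05). Of 6 genes of Epcam partners and epithelial proteases, 4 were higher in 2iLIF than in DMSO and 1 lower, against 34.7% of all genes called. The tetraspanin Cd9 rose by 0.80 ± 0.04, the surface glycoprotein Cd24a by 0.70 ± 0.05 and the membrane protease St14 by 0.54 ± 0.04, while the protease Prss8 was at -0.32 ± 0.07.

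**Figure D2:**
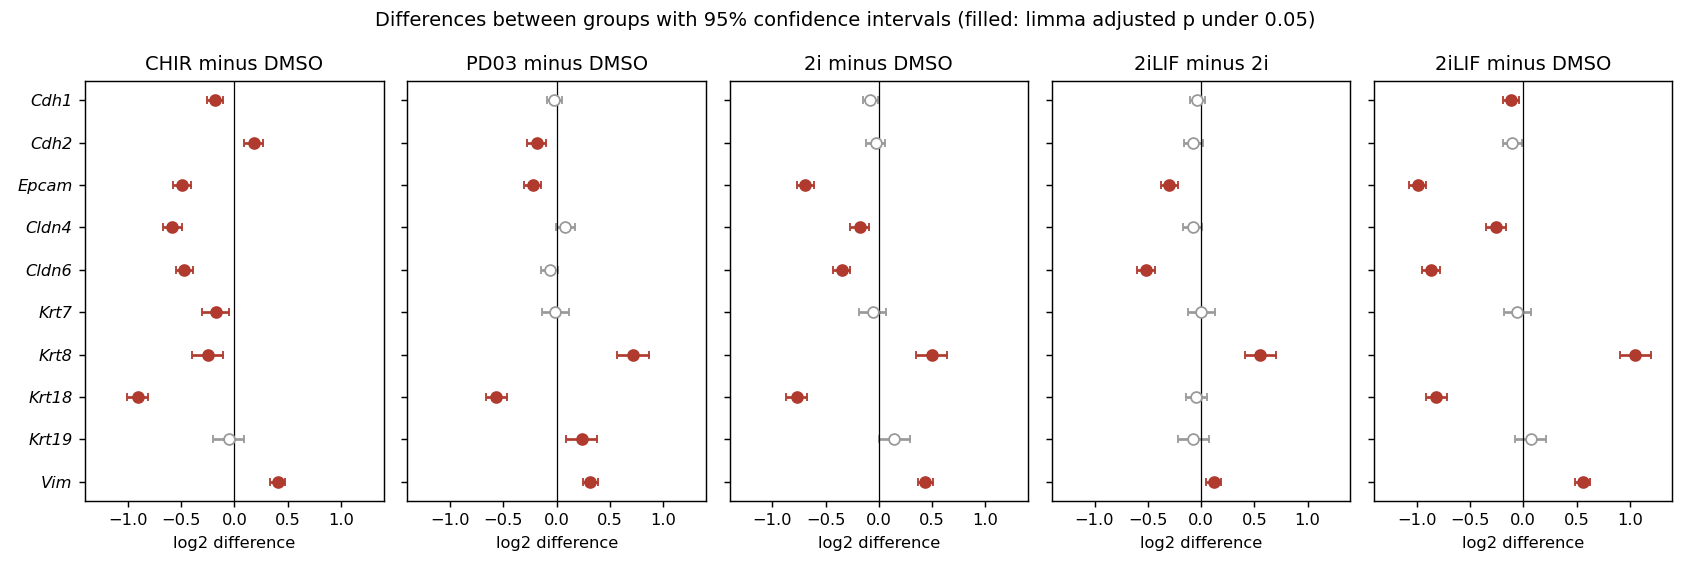
Log2 difference (x axis) of each of the 10 genes (y axis) in 5 comparisons, with 95% confidence intervals from the limma fit; filled points have an adjusted p under 0.05. Krt8 lies right of 0 and Krt18 left of 0 in PD03 minus DMSO, 2i minus DMSO and 2iLIF minus DMSO, and Epcam lies left of 0 in all 5.

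The keratin partners Krt8 and Krt18 did not move together. Krt8 read 10.41, 10.41 and 10.39 in 2iLIF, 10.06, 10.09 and 10.06 in PD03 and 9.74, 9.92 and 9.89 in 2i. It read 9.50, 9.17 and 9.40 in DMSO and 9.19, 9.09 and 9.03 in CHIR. The 3 groups with PD0325901 were all above the groups without it, and only DMSO and CHIR overlapped. Krt18 read 9.11, 8.97 and 8.96 in DMSO and 8.49, 8.46 and 8.38 in PD03. Its arrays lay between 8.03 and 8.25 in the 3 groups with CHIR99021, below both others, and no 2 of these 3 groups were called as different. The Krt18 arrays in 2i and CHIR did not overlap, and their difference (0.14 ± 0.05, limma adjusted p = 0.0819) was called with the low-value filter (0.0415) and with array weights (0.0345).

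Krt8 rose by 0.72 ± 0.07 in PD03 minus DMSO (limma adjusted p = 1.73e-06), where Krt18 fell by 0.57 ± 0.05 (3.25e-07). In 2i minus DMSO Krt8 was at 0.50 ± 0.07 and Krt18 at -0.77 ± 0.05, with adjusted p of 4.36e-05 and 4.37e-09. Keeping LIF raised Krt8 by 0.55 ± 0.07 (3.92e-05), and Krt18 was at -0.05 ± 0.05 (0.655, 95% confidence interval -0.15 to 0.05). In CHIR minus DMSO both were lower, Krt18 by -0.91 ± 0.05 (1.88-fold, 1.56e-09) and Krt8 by -0.25 ± 0.07 (0.0153). The Krt8 call there was lost without CHIR replicate 2 (0.0506) or 3 (0.0751) and without DMSO replicate 1 (0.0832) or 3 (0.0512), and in a fit of these groups alone (0.0716). Within single arrays, the Krt8 reading minus the Krt18 reading shifted by 1.28 from DMSO to PD03 and by 1.87 from DMSO to 2iLIF, with no overlap of arrays. Of the 10 pairs of groups, 9 did not overlap in this reading; the exact permutation p of 0.1 (two-sided, 0.111 adjusted over the 10 pairs) is the smallest that 3 arrays against 3 can give.

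The promoters of this pair are shown because the genes are near neighbours that moved apart: RefSeq lists 2 genes between them and no protein-coding one. Krt8 lies at chr15:102004293-102004592 (minus strand) and Krt18 at chr15:102027966-102028265 (plus strand), in GRCm38.p6, printed 5′ to 3′ with the same capitals as above.
Krt8: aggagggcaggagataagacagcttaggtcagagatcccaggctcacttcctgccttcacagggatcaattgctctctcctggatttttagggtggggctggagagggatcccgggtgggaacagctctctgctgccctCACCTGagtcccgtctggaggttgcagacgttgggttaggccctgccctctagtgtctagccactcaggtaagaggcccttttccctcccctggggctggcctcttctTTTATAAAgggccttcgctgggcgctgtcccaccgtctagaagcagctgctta
Krt18: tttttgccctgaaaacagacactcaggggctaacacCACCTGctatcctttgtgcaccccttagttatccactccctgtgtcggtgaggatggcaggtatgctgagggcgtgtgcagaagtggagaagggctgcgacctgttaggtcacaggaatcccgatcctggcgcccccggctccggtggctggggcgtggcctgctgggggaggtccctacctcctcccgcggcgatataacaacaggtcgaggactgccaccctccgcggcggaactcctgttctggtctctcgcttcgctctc
Each window holds 1 E-box, at -111 to -106 for Krt8 and at -214 to -209 for Krt18. The Krt8 window also holds overlapping TATA box matches on both strands, between -3 and 5. GC content was 58.0% for Krt8 and 61.3% for Krt18, with 6 and 17 CpG dinucleotides, against medians of 52.7% and 7 over all windows.

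The remaining keratin members were near the low end of the array. Krt19 ranged from 6.11 to 6.56 on the 15 arrays and Krt7 from 6.35 to 6.65, and no 2 groups next to each other in rank differed by the test for either gene. Krt19 was called in PD03 minus DMSO (0.24 ± 0.07, limma adjusted p = 0.0241), a call lost without PD03 replicate 2 (0.0506) or 3 (0.107), without DMSO replicate 2 (0.0641) or 3 (0.128), and in a fit of these groups alone (0.0709). It was also called in CHIR minus PD03 (-0.29 ± 0.07, 0.00462). Krt7 was called in CHIR minus DMSO alone (-0.17 ± 0.06, 0.048). That call was lost without any 1 of the CHIR arrays (0.0753, 0.172 and 0.0744 for replicates 1 to 3) and without DMSO replicate 1 (0.176) or 2 (0.122). It was also lost with arrays centred on their medians (0.0688), with a trended robust prior (0.06) and in a fit of these groups alone (0.0502). No detection calls were used, so values this low could not be set against background.

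Of 22 other keratins 20 stayed below the median gene in every group, and at most 3 were called in any of the 10 pairwise comparisons. That number was reached in 2iLIF minus DMSO, against 34.7% of all genes called, and in 2iLIF minus PD03, against 31.7%. In 2i minus CHIR 2 were called, against 9.46% of all genes. Krt17, a type I keratin of stressed and basal epithelia, had higher means in the groups with PD0325901 than in those without it, as Krt8 did. Unlike Krt8, Krt17 was highest in PD03 and not in 2iLIF. Its means were 9.24 in PD03, 8.91 in 2iLIF, 8.40 in 2i, 7.63 in DMSO and 7.56 in CHIR. It rose by 1.61 ± 0.08 in PD03 minus DMSO (limma adjusted p = 2.1e-09) and by 0.51 ± 0.08 with LIF (5.2e-04). Krt42 rose by 0.37 ± 0.06 in PD03 minus DMSO and by 0.56 ± 0.06 with LIF, and Krt10 rose by 0.23 ± 0.06 in 2iLIF minus DMSO. Krt86 was called in 2i minus DMSO alone (0.23 ± 0.08, limma adjusted p = 0.0333), a call lost without 2i replicate 1 (0.112) or 3 (0.0896) and without DMSO replicate 1 (0.1) or 3 (0.138). Krt8 and Krt18 also mark trophoblast, so its markers are given: 1 of 8 measured, Eomes, reached the median gene, and the summed signal was 10.26 to 10.29 in 2iLIF, 9.74 to 9.83 in 2i, 9.74 to 9.81 in CHIR, 9.56 to 9.61 in PD03 and 9.41 to 9.60 in DMSO. Eomes had means of 9.59 in 2iLIF and 7.79 in DMSO, while Cdx2, Gata3 and Elf5, which define trophoblast, had means of 5.63 to 6.09 in all groups. The part of such cells in the keratin values was not tested, and in bulk RNA fewer cells of a type and less RNA per cell cannot be told apart.

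**Figure D3:**
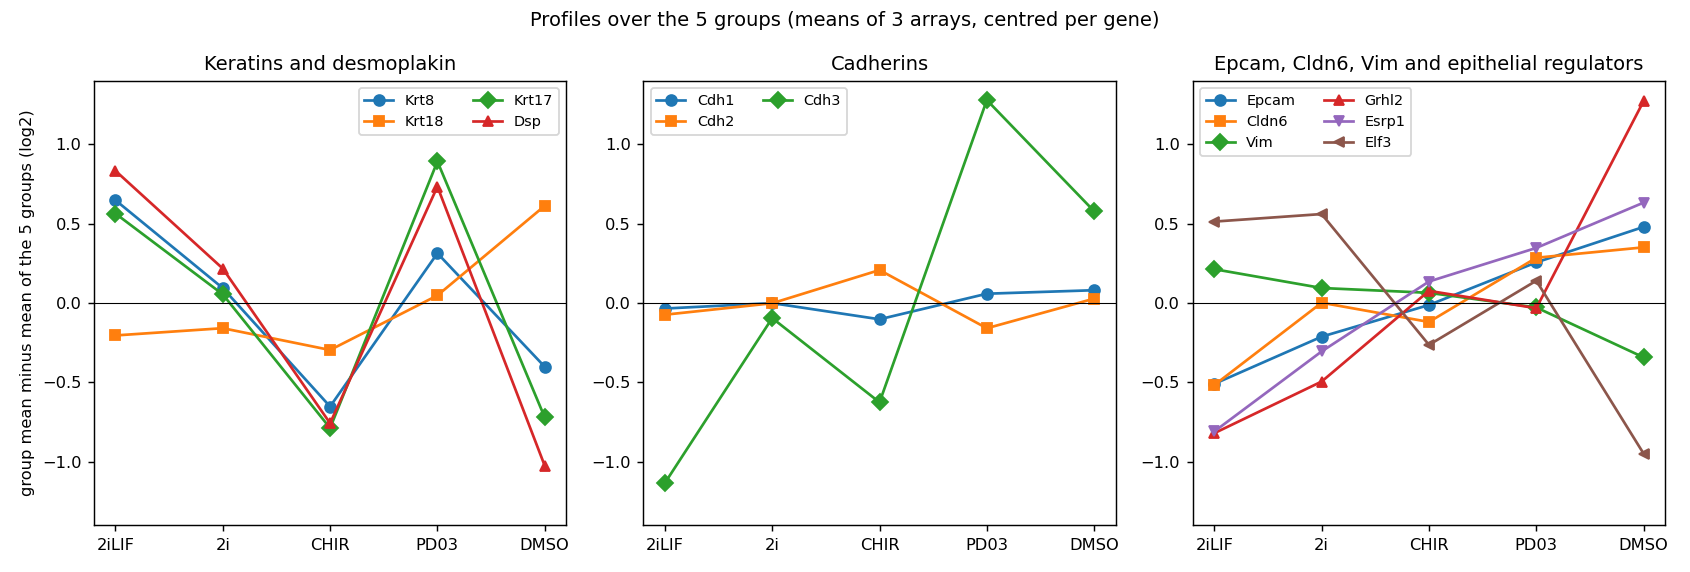
Group means (3 arrays each) minus the mean of the 5 groups, in log2 units (y axis), over the 5 groups (x axis), for keratins and Dsp, for cadherins, and for Epcam, Cldn6, Vim and epithelial regulators. Krt8, Krt17 and Dsp peak in 2iLIF and PD03, Krt18 peaks in DMSO, and Cdh3 varies over a wider range than Cdh1 and Cdh2.

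Vimentin ran against Epcam. Vim read 12.00, 12.05 and 12.03 in DMSO, 12.34, 12.33 and 12.34 in PD03 and 12.41, 12.42 and 12.46 in CHIR. It read 12.43, 12.46 and 12.50 in 2i and 12.59, 12.60 and 12.56 in 2iLIF. The DMSO arrays were the lowest and the 2iLIF arrays the highest, and CHIR and 2i overlapped. CHIR and PD03 did not overlap, yet their difference was just short of the threshold (0.09 ± 0.03, limma adjusted p = 0.0501). It was called with the low-value filter (0.02), mean probe sets (0.0499), median centring (0.0425), a trended robust prior (0.00541) and array weights (0.015). In a fit of these groups alone and without any 1 of their arrays it was not called. Vim was 1.47-fold higher in 2iLIF than in DMSO (0.56 ± 0.03, limma adjusted p = 1.45e-09), and rose by 0.41 ± 0.03 in CHIR minus DMSO (2.31e-07) and by 0.31 ± 0.03 in PD03 minus DMSO (4.27e-06). The step with LIF was 0.12 ± 0.03 (0.0252), lost without 2iLIF replicate 1 (0.06) or 2 (0.0934), without 2i replicate 1 (0.115) or 2 (0.0793), with arrays centred on their medians (0.0675) and in a fit of these groups alone (0.108). Over the 15 arrays Pearson's r was -0.914 between Vim and Epcam and -0.936 between Vim and Krt18, again as descriptions.

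The other mesenchymal genes were called about as often as all genes in 2 of these comparisons. Of 19 measured, 1 was higher and 4 lower in CHIR minus DMSO (median -0.07), against 20.8% of all genes called, and 5 were higher and 1 lower in 2iLIF minus DMSO (median 0.04), against 34.7%. In PD03 minus DMSO 6 were higher and 1 lower (median 0.07), against 16.8%. The matrix protein Sparc fell by 0.33 ± 0.04 in CHIR minus DMSO and rose by 0.45 ± 0.04 in PD03 minus DMSO, the fibronectin receptor subunit Itga5 was at -0.19 ± 0.05 and 0.51 ± 0.05, the matrix protein Tgfbi at -0.25 ± 0.05 and 0.48 ± 0.05, and the matrix metalloproteinase Mmp2 fell in both (-0.62 ± 0.04 and -0.46 ± 0.04). Summed markers of fibroblasts or feeder cells lay between 9.97 and 10.17 on all 15 arrays, and 1 of 10, Col1a1, reached the median gene, with means of 7.58 to 7.77. Of the primitive endoderm markers 2 of 10 reached it in some group (sums 10.01 to 10.20), and of the primitive streak markers 2 of 6, Eomes and Gsc. The streak sums were 10.30 to 10.32 in 2iLIF, where Vim was highest, and 9.35 to 9.55 in DMSO, where it was lowest. Most of this gap was Eomes, with means of 9.59 in 2iLIF and 7.79 in DMSO. Mixl1 (6.76 and 6.61), Kdr (5.72 and 5.64), Gsc (7.48 and 7.32) and Evx1 (6.47 and 6.32) differed far less. Mesp1 went the other way (6.21 and 6.30). The part of such cells in the Vim values was not tested.

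Among 14 other intermediate filament and lamin genes the neurofilament genes moved most. Nefl rose by 2.31 ± 0.06 and Nefm by 2.02 ± 0.07 in CHIR minus DMSO, against 0.53 ± 0.06 for Nefl in PD03 minus DMSO. Ina, also a neuronal filament, fell by 1.21 ± 0.08 with LIF, and Nes, the filament of neural progenitors, was at -0.37 ± 0.07 in CHIR minus DMSO and at 0.64 ± 0.07 in PD03 minus DMSO. Summed neural progenitor markers were 10.55 to 10.64 in PD03, where Nes was high and Cdh2 low, and 9.99 to 10.31 in the other groups. Of 6 measured, 3 reached the median gene in some group. Tubb3 (mean 9.33) and Pax6 (8.19) were highest in PD03, while Sox1 was highest in DMSO (8.39, against 8.24 in PD03). Pax3, Neurog2 and Olig2 were not highest in PD03 either. The part of such cells in these values was not tested.

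Regulators of the epithelial state moved in both directions. Of 13 measured, 4 were higher and 4 lower in CHIR minus DMSO, 5 were higher and 3 lower in PD03 minus DMSO, and 6 were higher and 3 lower in 2iLIF minus DMSO, against 20.8%, 16.8% and 34.7% of all genes called. Grhl2, a transcription factor that activates junction genes, was lower in CHIR (-1.20 ± 0.09), PD03 (-1.31 ± 0.09) and 2iLIF (-2.10 ± 0.09) than in DMSO, and the epithelial splicing factor Esrp1 was at -0.50 ± 0.04, -0.29 ± 0.04 and -1.44 ± 0.04. Elf3, an epithelial ETS factor, was higher in the same comparisons, at 0.69 ± 0.06, 1.09 ± 0.06 and 1.46 ± 0.06, and Tfap2c was at 0.49 ± 0.08, 0.34 ± 0.08 and 1.96 ± 0.08. All of these passed the test, with a highest limma adjusted p of 0.0067.

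Of 12 factors that drive the transition to mesenchymal cells, 8 stayed below the median gene in all groups. In CHIR minus DMSO 3 were called and in PD03 minus DMSO 2, all lower, shares close to the 20.8% and 16.8% of all genes. Snai2, a repressor of Cdh1, was at -0.39 ± 0.09 (limma adjusted p = 0.0054) and -0.35 ± 0.09 (0.015) in these comparisons. The second call did not survive leaving out PD03 replicate 1 (0.0523), nor DMSO replicate 3, where the value was -0.22 (0.0679). Snai3 was at -0.31 ± 0.06 in both, and Tcf4 fell by 0.26 ± 0.04 with LIF. The third lower factor in CHIR minus DMSO was Prrx2 (-0.28 ± 0.07), a call lost without CHIR replicate 1 (0.0507) or DMSO replicate 2 (0.0585).

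The effects of the inhibitors departed from a sum on the log2 scale for 3 of the 10 genes. The interaction is the effect of CHIR99021 with PD0325901 present (2i minus PD03) minus its effect without it (CHIR minus DMSO). It was called for Krt18, Cldn4 and Vim, 3 of 10 members (2 higher, 1 lower), against 2.04% of all genes. For Krt18 the effect of CHIR99021 was -0.91 ± 0.05 without PD0325901 and -0.21 ± 0.05 with it, an interaction of 0.70 ± 0.07 (limma adjusted p = 2.33e-05). For Cldn4 it was -0.58 ± 0.04 without and -0.26 ± 0.04 with it (interaction 0.33 ± 0.06, adjusted p = 0.00723). For Vim it was 0.41 ± 0.03 and 0.12 ± 0.03 (interaction -0.28 ± 0.05, 0.00317). In each case the effect was smaller with MEK inhibited, and none of these interaction calls was lost without any 1 array. The number of all genes called in the interaction fell from 406 to 269 without PD03 replicate 1 and to 255 without PD03 replicate 3.

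For Epcam the interaction was 0.02 ± 0.05 (95% confidence interval -0.09 to 0.14, limma adjusted p = 0.926) and for Krt8 0.03 ± 0.10 (-0.18 to 0.24, 0.947). In 2i minus PD03 itself 7 members were called (2 higher, 5 lower), against 19.5% of all genes. The Krt8 value of that comparison (-0.22 ± 0.07, 0.0338) lost its call without 2i replicate 1 (0.154) or 3 (0.0531) and without any 1 of the PD03 arrays (0.0749 to 0.0976), and with arrays centred on their medians (0.0585). Its calls of Cdh2 and Vim were lost without PD03 replicate 1 (0.0708) and without 2i replicate 3 (0.0699), in that order. Krt17 and Dsp had negative interactions, -0.77 ± 0.12 (0.002) and -0.79 ± 0.12 (0.0027).

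**Figure D4:**
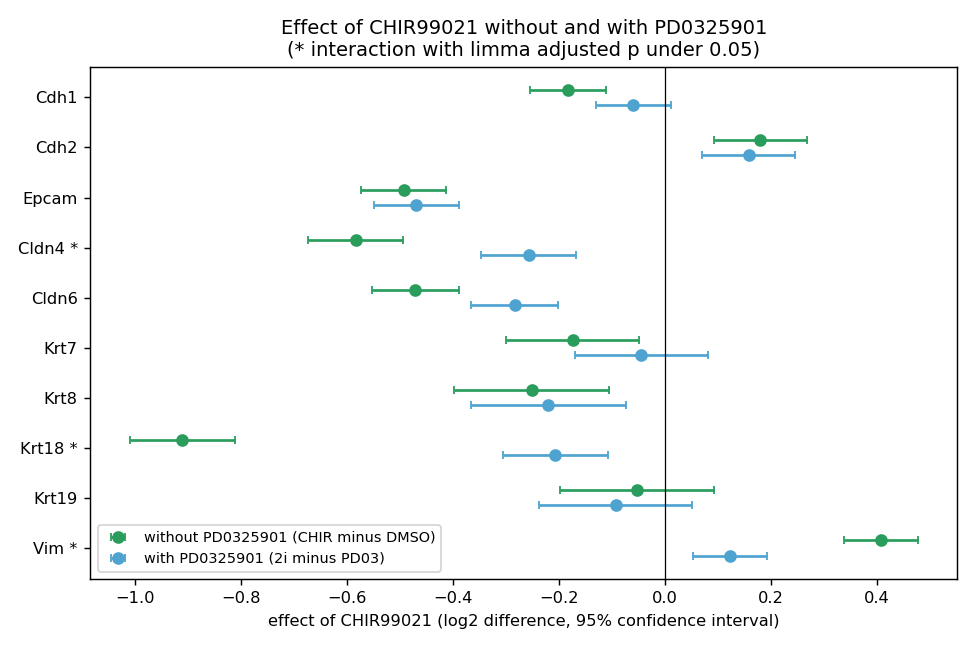
Effect of CHIR99021 on each of the 10 genes (y axis) as a log2 difference (x axis) without PD0325901 (CHIR minus DMSO) and with it (2i minus PD03), with 95% confidence intervals. The effects differ for Krt18 (-0.91 and -0.21), Cldn4 and Vim, which carry an asterisk, and lie close together for Epcam (-0.49 and -0.47).

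The full medium was also set against each inhibitor alone. In 2iLIF minus CHIR 6 members were called (3 higher, 3 lower), against 23.1% of all genes, led by Krt8 at 1.30 ± 0.07 (2.47-fold, limma adjusted p = 1.06e-09), with Epcam at -0.50 ± 0.04 and Cldn6 at -0.40 ± 0.04. In 2iLIF minus PD03 7 were called (2 higher, 5 lower), against 31.7%, with Cldn6 at -0.80 ± 0.04 and Epcam at -0.77 ± 0.04. The call of Cdh1 in 2iLIF minus PD03 (-0.09 ± 0.03, 0.0444) was lost without any 1 of the 6 arrays (0.0581 to 0.151).

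The genes whose values followed a member most closely were sought among 1983 genes with group means at least 0.5 apart, by Pearson's r over the 15 arrays. Epcam was followed by Lrp2 (r = 0.994), an endocytic receptor, with means from 6.85 in 2iLIF to 10.25 in DMSO, and by Pea15a (0.991). Cldn6 was followed by Rps23rg1 (0.977) and Igfbp2 (0.974), and Cldn4 by Abcg1 (0.953) and Slc45a4 (0.938). Krt8 was followed by Afmid (0.980) and Rnf213 (0.979), Krt18 by the integrin gene Itga3 (0.985) and Large2 (0.962), and Vim by Abhd2 (0.975) and Brpf3 (0.969). The closest genes were picked from many, and the arrays form 5 groups, so these values have no test.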

How the data were processed

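Total RNA was hybridised to 1-colour Affymetrix whole-transcript arrays, and the authors deposited log2 values per probe set made with RMA (background correction, quantile normalization and probe summary), per the submitters' processing notes; its version and the genome build are not given in the sources used here. RMA compresses differences of weakly expressed genes and hides a change shared by most genes. Of 34760 probe sets, 21640 had exactly 1 symbol in the platform annotation, 1321 had several and 11799 are unnamed here. Symbols were updated through RefSeq gene identifiers (21553 matched), and the probe set with the highest mean stood for a gene with several, which left 19937 genes.

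Group means were modelled over the 15 arrays together in limma 3.58.1 (lmFit, eBayes, default settings; R 4.3.3), with 11 contrasts, two-sided p-values, Benjamini-Hochberg adjustment over all genes and a threshold of 0.05. All adjusted p-values of genes are limma's. The median standard error of a difference was 0.0509 (log2). The number of arrays limits the precision. The fit was tested on simulated data with independent normal noise and shifts in the CHIR group alone. In CHIR minus DMSO it called 99 of 100 genes shifted by 0.5 and 100 of 100 shifted by 1 (log2), with 15 false calls. Far fewer genes were shifted there than were called here, so this does not measure the accuracy of the calls in these data.

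The members and the 9 lists of related genes (134 genes measured of 143 entries) were chosen with earlier results of these data known. The text names all members, up to 4 genes of each list with the largest called difference, and the 2 genes most like each member that spans 0.5 (log2), predicted genes left out, and 1 target gene per factor. Alternatives were a low-value filter, mean probe sets, median centring, a trended robust prior, array weights, fits of the compared groups alone, the replicate block, a 2-fold minimum and leaving out each array. Promoter sequences are RefSeq's (GRCm38.p6), and 1714 of 1714 overlapping windows on opposite strands were reverse complements. Exact tests used SciPy 1.17.1.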

Additional observations from a re-analysis of the deposited data

Results flagged for a closer look

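By the interaction term over all 15 arrays, the effect of CHIR99021 differed by whether PD0325901 was present for 3 of the 10 genes. The term was called for 2.04% of all genes. The interaction was 0.70 for Krt18 (limma adjusted p = 2.33e-05), 0.33 for Cldn4 (0.00723) and -0.28 for Vim (0.00317), on the log2 scale. With the low-value filter Cldn6 was called as well (0.19, limma adjusted p = 0.0497), beside 547 of the 10359 genes kept. Groups of 3 arrays were not searched for outlying arrays.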

How the results depend on the processing

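Of 110 member values (10 genes in 11 comparisons), 67 were called, 58 of these kept their call under each alternative run except the 2-fold minimum, 9 lost it under at least 1, and 11 uncalled values gained one; no called value changed sign. Krt7 and Krt19 have no value under the low-value filter. With the 2-fold minimum the members called were 1 in 2iLIF minus DMSO and in 2iLIF minus CHIR and 0 in the other comparisons. The genes called among all were then 401 in 2iLIF minus DMSO, 190 in 2iLIF minus PD03, 167 in 2iLIF minus CHIR and 42 in 2iLIF minus 2i. They were 180 for 2i against DMSO, 92 for CHIR against DMSO, 76 for PD03 against DMSO, 139 for CHIR against PD03, 63 for 2i against PD03, 30 for 2i against CHIR and 14 for the interaction. In 2i minus CHIR 7 members were called with the low-value filter, which tests fewer genes, and 7 with array weights, in place of 4. The calls among all genes rose too. They were 2177 of the 10359 genes kept by the filter and 2349 of 19937 with array weights, in place of 1887 of 19937. Leaving out arrays gave 255 to 437 called genes for the interaction, in place of 406. The replicate numbers did not pair the arrays: same-numbered arrays deviated together with r above 0.1 in 10 of 30 pairs, and 4 of 15 arrays correlated best with their own number. Differently numbered arrays of different groups did so in 22 of 60 pairs. The highest r was 0.341 for the same number and 0.443 for different numbers, so some arrays of different groups deviated together. With the replicate block 4007 genes were called in CHIR minus DMSO in place of 4144, 8 members in place of 9, and 352 in the interaction in place of 406. With it Krt7 in CHIR minus DMSO (adjusted p = 0.0629), Krt8 in 2i minus PD03 (0.0504) and Cdh1 in 2iLIF minus PD03 (0.0646) were not called, and Krt18 in 2i minus CHIR was (0.0476). Signal over background could not be judged without detection calls.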
